A study of Mus musculus with 2 samples.

Results

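Mir132 and Mir212 are neighbouring miRNA genes whose transcription neuronal activity induces. They were taken from the count tables by their identifiers, ENSMUSG00000065537.2 for Mir132 and ENSMUSG00000065590.1 for Mir212 in the GENCODE M21 annotation, and are 2 of 2202 miRNA genes measured. MicroRNA-seq counts RNA shorter than 30 nucleotides, the size class of mature miRNAs. The tissue was the left cerebral cortex, taken from 2 B6CASTF1/J females aged 2 months, from The Jackson Laboratory, for which the labels name no treatment. The strain is a hybrid of C57BL/6J and the wild-derived CAST/EiJ, and the tables do not separate its parental alleles. Each mouse gave 1 library, called animal 2 and animal 1 after its biological replicate number, although both labels name the same donor identifier. The design holds 1 group and no stimulated or deprived cortex, so induction by activity was not measured.

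Mature miRNAs are short guides that direct the repression of messenger RNAs through a seed, bases 2 to 8, that pairs with target sites. In neurons, calcium signals and neurotrophins act through the transcription factor CREB to start the primary transcript from which both hairpins are cut. Work in mice and rats has tied miR-132 to dendrite growth, spine form, plasticity of the visual cortex and the circadian clock. miR-212 is less studied in cortex and shares many predicted targets with miR-132, because their 3p arms carry the same seed.

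The mature sequences are shown because the 3p arms of both hairpins can pair with the same target sites while differing enough to be counted apart. The counts below pool both arms of a gene, so they do not give the level of its 3p arm alone. Capitals mark the seed, and the RefSeq sequences are of build GRCm38.p6, written 5′ to 3′.
mmu-miR-132-3p: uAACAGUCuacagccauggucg
mmu-miR-212-3p: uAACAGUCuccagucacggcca
mmu-miR-132-5p: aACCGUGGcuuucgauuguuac
mmu-miR-212-5p: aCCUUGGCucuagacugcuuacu
The 3p arms were identical over their first 9 bases and at 17 of 22 positions (77.3%). Counted from the 5′ end, with the miR-132-3p base first and the miR-212-3p base last, they differed at A10C, C14U, U17C, U20C and G22A. All 5 differences lie outside the seed. No other mature miRNA in the RefSeq table had the seed AACAGUC. The 5p arms had different seeds, neither of which occurred in another listed miRNA, and aligned with 17 identical bases in 24 columns (70.8%).

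The hairpins show where the arms lie in each precursor; here capitals mark the mature arms, 5p first.
Mir132: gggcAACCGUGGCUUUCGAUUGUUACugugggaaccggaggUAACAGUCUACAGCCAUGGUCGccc
Mir212: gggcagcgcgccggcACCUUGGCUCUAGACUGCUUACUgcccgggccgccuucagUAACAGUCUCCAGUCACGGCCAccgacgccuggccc
The Mir132 hairpin is 66 bases long with 57.6% G and C, and the Mir212 hairpin 91 bases with 69.2%, against a median of 51.7% over 1005 listed hairpins. Only 30 of the 1005 had a higher G and C content than Mir212, and 254 had a higher one than Mir132. The lowest predicted folding energy was -37.2 kcal/mol for Mir132 and -41.5 kcal/mol for Mir212. In the predicted folds all 7 seed bases of both 3p arms were paired with the opposite arm. The longest stretch the hairpins share with each other is 10 bases. With any of the other 1003 hairpins it was 10 bases for Mir132 and 11 for Mir212, so among listed hairpins a read of a whole mature arm matches 1 gene only. The genome outside these hairpins was not searched.

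On mm10, Mir212 lies on the plus strand of chromosome 11 at 75173388 to 75173478, and Mir132 follows on the same strand at 75173682 to 75173747. A gap of 203 bases separates the hairpins. Both lie in intron 1 of 1700016P03Rik, an annotated noncoding transcript with 3 exons, in the 1380 bases between exons 1 and 2. Exon 1 ends 790 bases before Mir212, and exon 2 begins 230 bases after Mir132. No other annotated gene overlaps the hairpins on either strand, and no other measured miRNA gene starts within 100 kb. The nearest annotated protein-coding genes are Hic1 upstream and Ovca2 downstream, both on the minus strand.

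**Figure D1:**
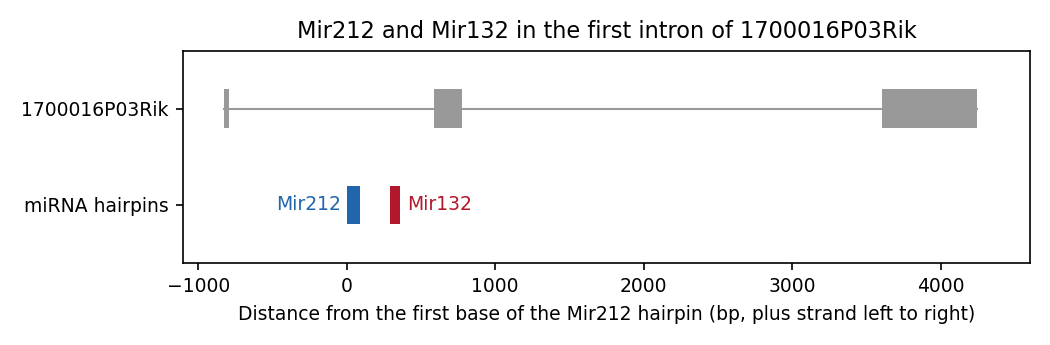
Map of the cluster. The horizontal axis is the distance in bp from the first base of the Mir212 hairpin. Grey boxes joined by a line are the 3 exons of 1700016P03Rik, and the blue and red boxes are the Mir212 and Mir132 hairpins, which lie 203 bases apart between exons 1 and 2.

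The libraries held 2279562 counts at miRNA genes in animal 2 and 4415759 in animal 1. Levels are CPM, the count per 1000000 gene counts of its library. They are not divided by length, since a read covers 1 mature arm of 22 or 23 bases and not the hairpin, and each gene's count pools its 5p and 3p arms. Reads mapping to several places in the genome formed a separate entry, with a share of the mapped reads of 48.2% in animal 2 and 48.9% in animal 1, and how the counting program treated them at genes is not stated. Intervals are exact Clopper-Pearson 95% intervals. They describe the error of counting reads alone. Amplified reads can be copies of 1 molecule, so the error of counting molecules may be wider.

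Among reads counted at miRNA genes, Mir132 was one of the most abundant miRNAs of this cortex in both animals, and it was far higher in animal 2. The ranks given here and below cover counted reads only, so genes with many reads in the several-places entry may rank too low. How fully each miRNA is turned into reads was not measured, so ranks and ratios between genes compare reads and not molecules. Mir132 had 181398 counts in animal 2 and 107695 in animal 1, although the library of animal 2 held fewer counts in all. Scaled, these were 79576 CPM in animal 2 (interval 79225 to 79928) and 24389 CPM in animal 1 (24245 to 24533). Mir132 thus took 7.96% of all miRNA counts in animal 2 and 2.44% in animal 1, and it ranked 2nd in animal 2 and 9th in animal 1. The mean was 51982 ± 39023 CPM (SD, n = 2), a coefficient of variation of 75.1%.

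Mir212 was well above the detection threshold and also higher in animal 2, by a smaller factor. It had 3392 counts in animal 2 and 4015 in animal 1. Scaled to the libraries these are 1488 CPM in animal 2 (interval 1438 to 1539) and 909 CPM in animal 1 (881 to 938). Its share of miRNA counts was 0.149% in animal 2 and 0.0909% in animal 1, and its rank 85 and 96. The mean was 1199 ± 409 CPM (SD, n = 2), a coefficient of variation of 34.1%. Neither member had a count on the opposite strand in either animal, and the counts made without regard to strand equalled the stranded ones.

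The ratio between animals was 3.26-fold for Mir132, a log2 ratio of 1.71 (interval 1.70 to 1.72), and 1.64-fold for Mir212, a log2 ratio of 0.71 (0.64 to 0.78). Both members were thus higher in animal 2 beyond counting error. Among the 415 genes with 2 CPM or more in both animals, 29.6% were higher in animal 2 in this sense, and among the 100 genes averaging 1000 CPM or more it was 47.0%. Lying beyond counting error is therefore common at this depth and says little about these genes by itself. Size set Mir132 further apart: a log2 ratio above 1 in favour of animal 2 was found at 7.95% of the 415 genes. Mir132 had the 5th largest absolute log2 ratio among the 100 and Mir212 the 23rd, beside a median absolute log2 ratio of 0.24. With 1 library per animal, a difference between animals cannot be told apart from one between library preparations, and no p-value is given.

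**Figure D2:**
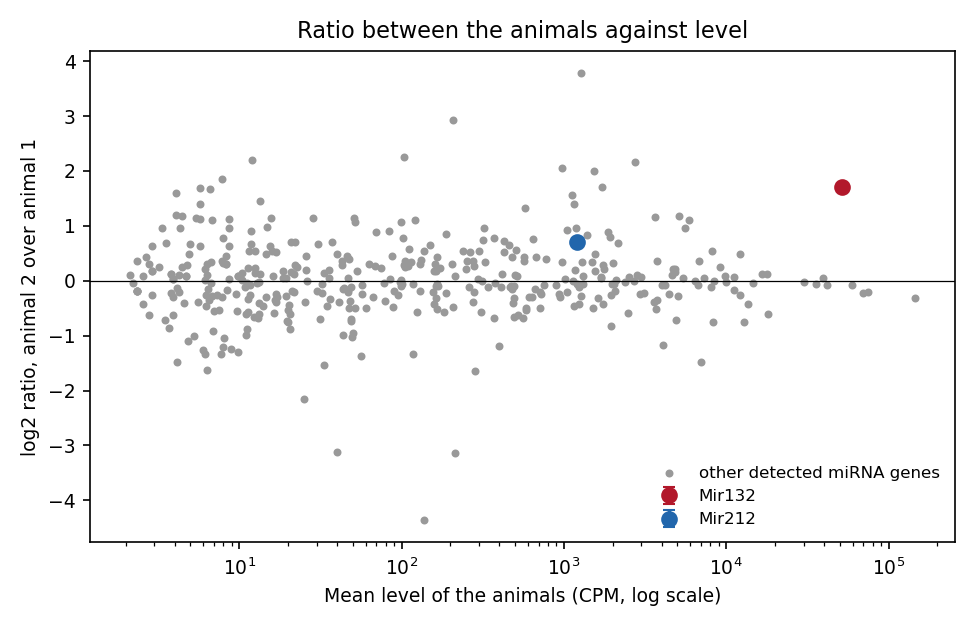
Each point is 1 of the 415 miRNA genes with 2 CPM or more in both animals. The horizontal axis is the mean level in CPM on a log scale and the vertical axis the log2 ratio of animal 2 over animal 1. Bars on the coloured points are the exact 95% counting intervals and are hidden by the points. Mir132, at 1.71, lies alone at the upper right, since other genes of like level have ratios near 0, and Mir212, at 0.71, lies within a crowd of genes of like level.

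Unmapped reads made up 47.1% of all reads in animal 2 and 23.4% in animal 1, while reads counted at miRNA genes were 42.5% and 42.6% of mapped reads. The scale of both ratios rests on leaving the unmapped reads out. Per 1000000 reads of any kind, an alternative chosen after the data were seen, Mir132 was 2.25-fold and Mir212 1.13-fold higher in animal 2. The median log2 ratio of all detected genes moved by -0.54 under that scaling. Relative to that median, Mir132 stood at 1.70 and Mir212 at 0.71 under either denominator. That is so by construction, since a change of denominator shifts the log2 ratio of every gene equally, and it does not decide between the scales.

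On the CPM scale Mir132 had the largest absolute difference of all measured miRNA genes. Its level was 55187 CPM higher in animal 2, which is 47.0% of the summed gain of the 340 genes that were higher there. The next largest gain was 4330 CPM, at Mir221, a gene named after its values were seen. Mir212 gained 579 CPM, the 54th largest absolute difference in either direction. Per 1000000 reads of any kind, Mir132 had 17884 in animal 2 and 7958 in animal 1, and Mir139, Mirlet7b and Mir127, all lower in animal 2 on that scale, then differed by more. Mir139, the most abundant gene of these tables, and Mirlet7b were named after their values were seen.

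The difference in level between animals blurs the place of Mir132 among abundant miRNAs. By mean it ranked 5th, below Mir127 and Mirlet7g and above Mirlet7i and Mir744. Mir127 is an imprinted miRNA that targets Rtl1, and Mirlet7g and Mirlet7i are let-7 miRNAs, which hold back growth genes. The level of Mir127 was 63978 CPM in animal 2, against 74548 CPM in animal 1, and that of Mirlet7g 57622 and 60613 CPM. The level of Mirlet7i was 40819 CPM in animal 2, against 43061 CPM in animal 1, and that of Mir744 40153 and 38788 CPM. All 4 fell inside the range from 24389 to 79576 CPM that Mir132 spanned, as did the values of Mirlet7d and Mirlet7e in both animals, and that range also overlapped the range of Mirlet7b; Mirlet7d and Mirlet7e were named after their values were seen. Mir132 therefore did not differ beyond its own spread from 7 genes between mean ranks 2 and 9.

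Mir212, 91st by mean, sat where levels are dense. The ranges of 34 other genes, from mean rank 55 to 105, overlapped its range of 909 to 1488 CPM. Its neighbours in rank were Mir708 at 1236 ± 258 CPM and Mir1839 at 1211 ± 30.2 CPM above it, and Mir27b at 1181 ± 536 CPM and Mir7b at 1168 ± 112 CPM below it (SD, n = 2 each).

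Although cut from a common transcript, the members were counted at very different levels, and by unequal factors in the animals. There were 53.5 Mir132 counts per Mir212 count in animal 2 (interval 51.7 to 55.3) and 26.8 in animal 1 (26.0 to 27.7). The mean ratio was 40.2 ± 18.8 (SD, n = 2). Mir212 supplied 1.84% of the counts of the cluster in animal 2 and 3.59% in animal 1, and the cluster as a whole made up 8.11% of miRNA counts in animal 2 and 2.53% in animal 1. The log2 ratio of Mir132 between animals exceeded that of Mir212 by 1.00 (counting interval 0.93 to 1.06), a 1.99-fold difference that does not depend on how the libraries are scaled. The unequal factors lay beyond counting error, but with 1 library per animal they were not tested against the spread between animals.

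Other neighbouring miRNA genes gave a yardstick for both features. Pairs next to each other on the same strand, with starts within 10 kb and 2 CPM or more in both animals, numbered 88, of which 42 lie on chromosome 12. Both genes had a mean of 100 CPM or more in 50 pairs, and in the 49 of these other than Mir212 and Mir132 the neighbours' log2 ratios differed by a median of 0.34. The difference was larger than that of Mir132 and Mir212 in 8 of those 49, and in 6 of 22 with chromosome 12 left out. The largest, 3.20, was between Mir298 and Mir296 on chromosome 2, a pair named after its values were seen. By counted reads, Mir132 stood 43.4-fold above Mir212. The median between neighbours was 6.35-fold in the 49 other pairs, 6 of which were further apart. The members lay toward the upper end of both distributions and beyond neither. Genes enter up to 2 pairs, so the pairs are not independent and no test is given.

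**Figure D3:**
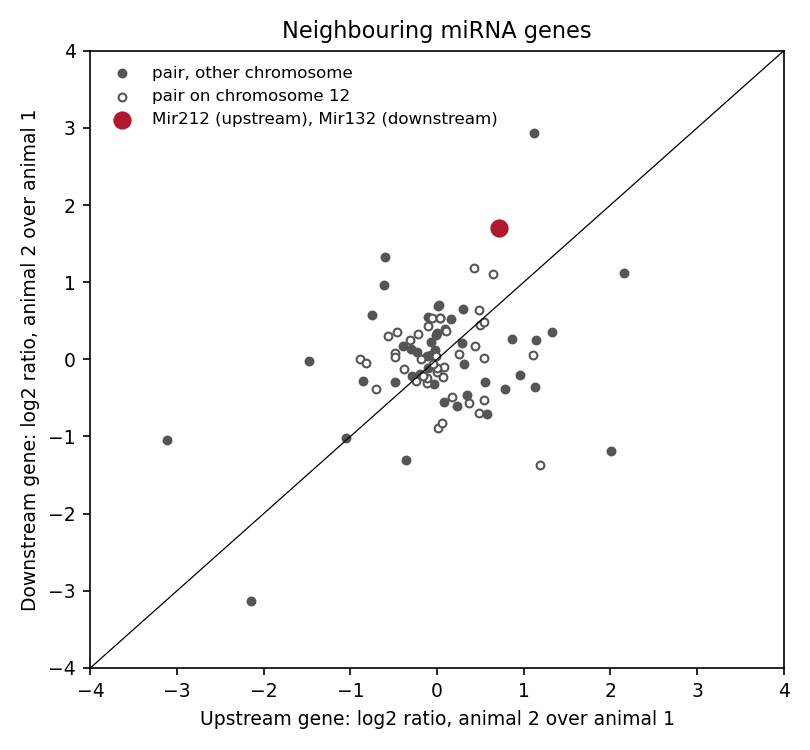
Each point is 1 of the 88 pairs of neighbouring miRNA genes. The horizontal axis is the log2 ratio of animal 2 over animal 1 for the upstream gene and the vertical axis that for the downstream gene, open points are pairs on chromosome 12, and the diagonal marks equal ratios. The pair of Mir212 and Mir132 has both ratios above 0 and lies 1.00 above the diagonal, while 45 of the 87 other pairs have ratios of the same sign.

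The miRNA genes whose ratio between animals was closest to that of Mir132, at a mean level of at least 100 CPM, were Mir107, Mir455 and Mir298. Likeness was the absolute difference of log2 ratios over the 2 libraries, which are too few to define a pattern. The level of Mir107 was 2613 CPM in animal 2 and 798 CPM in animal 1, a log2 ratio of 1.71. Mir455 had a log2 ratio of 1.56 and Mir298 one of 2.00. Closest to Mir212 were Mir101b with 0.72, Mir98 with 0.69 and Mir873a with 0.74. None of these 6 genes lies on chromosome 11.

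A list of miRNAs known to respond to neuronal activity or to act at synapses held the members and 14 other genes, and all 16 passed 2 CPM in both animals. Of the 14, 8 were higher in animal 2 and 3 higher in animal 1 beyond counting error, and 3 were inside it. Over all detected genes the shares higher in animal 2 and in animal 1 were 29.6% and 27.0%. Such calls are more frequent at higher levels: 47.0% of the 100 genes averaging 1000 CPM or more were higher in animal 2. All of the 14 but Mir181a-2 averaged over 100 CPM, but not all reached 1000 CPM. No share was computed for genes of their levels, so their count is not read as an excess. With all reads as denominator, 3 of the 16 listed genes in place of 10 were higher in animal 2 beyond counting error, and 42 of all detected genes in place of 123. The median log2 ratio of the 14 was 0.15, against 0.00 over the 415 detected genes, and none of the 14 exceeded 1. Mir34a, which limits dendrite growth and targets the vesicle protein Syt1, came nearest, at 2433 CPM in animal 2 against 1313 CPM in animal 1, a log2 ratio of 0.89. It moved further between the animals than Mir212 did, and less than Mir132.

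Within that list, Mir134, a dendritic miRNA that holds back Limk1 and spine growth, stood at 444 CPM in animal 2, against 481 CPM in animal 1. Mir329 and Mir381, which lie in the same imprinted cluster as Mir134 and are induced through Mef2, had 282 and 547 CPM in animal 2 and 194 and 406 CPM in animal 1. Mir485, an activity-responsive regulator of the vesicle protein Sv2a from that cluster, was lower in animal 2, with 4545 CPM against 5520 CPM in animal 1. The members of this Mef2-regulated cluster thus stood on both sides of 0, with log2 ratios of -0.12 for Mir134, 0.54 for Mir329, 0.43 for Mir381 and -0.28 for Mir485.

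Counts at the hairpins of miR-138, which limits spine size through Lypla1, went opposite ways. Reads that fit both hairpins may stand in the several-places entry, so these counts need not follow the level of the mature miRNA. The level of Mir138-1 was 5025 CPM in animal 2, against 4329 CPM in animal 1, and that of Mir138-2 2860 and 3350 CPM. Mir191, a miRNA linked to spine remodelling in long-term depression, had 10132 and 9528 CPM and was the list's most abundant gene after Mir132. Mir146, a regulator of inflammatory signalling and of the dendritic protein Map1b, had 601 and 407 CPM, Mir384 had 149 and 114 CPM, and Mir188, which targets Nrp2, had 186 and 159 CPM. Mir184, an imprinted miRNA that responds to depolarization in cultured neurons, had 163 and 169 CPM, inside counting error. The hairpins of miR-181a, a repressor of the glutamate receptor subunit Gria2, were also inside it, with 300 and 295 CPM for Mir181a-1 and 14.5 and 19.0 CPM for Mir181a-2. Reads that fit both miR-181a hairpins may likewise be missing from these counts.

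**Figure D4:**
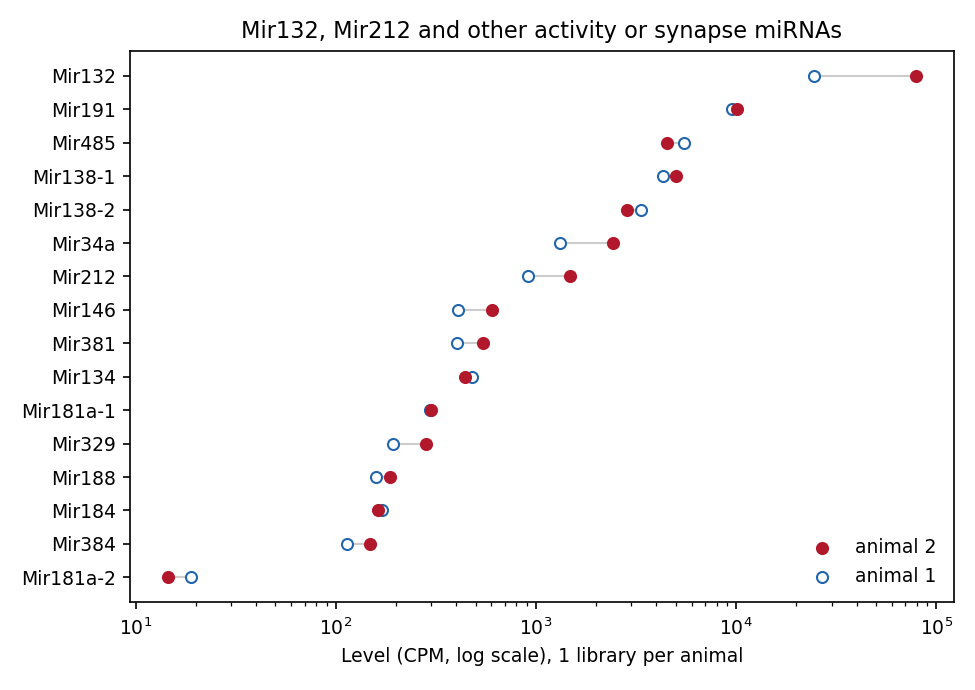
Levels of the 16 listed miRNA genes in CPM on a log axis, ordered by their mean. Filled red points are animal 2, open blue points animal 1, and a grey line joins the values of a gene. Mir132, at 79576 CPM in animal 2 and 24389 CPM in animal 1, has the longest line; Mir212 is 7th from the top.

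The other listed neuronal miRNAs lay on both sides of 0. Of 13 listed neuron genes besides Mir132 and Mir212, 10 passed 2 CPM in both animals. Of these 10, 4 were higher in animal 2, 5 higher in animal 1 and 1 inside counting error, beside 29.6% and 27.0% of all detected genes. Among the 100 genes averaging 1000 CPM or more, 47.0% were higher in animal 2. The share of those genes higher in animal 1 was not computed, so the 5 of 10 are not read as an excess. The other 3 of the 13 are the copies of the neuronal miRNA miR-124, Mir124a-1, Mir124a-2 and Mir124a-3, with 2, 4 and 0 counts in animal 2 against 11, 6 and 4 in animal 1. Reads that fit more than 1 copy may stand in the several-places entry. These low counts therefore do not show that miR-124 was scarce, and sums over the list may leave most of it out. The summed level of the 13 was 25929 CPM in animal 2, against 33955 CPM in animal 1. Without Mir128-1, left out after its values were seen, it was 16283 CPM in animal 2, against 17791 CPM in animal 1. The median log2 ratio of the 10 was -0.17. The most abundant by counted reads was Mir128-1, a neuronal excitability miRNA, at 9645 CPM in animal 2 against 16164 CPM in animal 1, followed by Mir138-1 and by Mir137, a synaptic vesicle regulator, with 3052 and 4338 CPM. In bulk cortex, more cells of a type and more RNA per cell cannot be told apart.

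Genes listed for other cell types differed between the animals as well, and whether they mark those cells in this cortex was not tested. Their counts stand beside the 29.6% of all detected genes, and 47.0% of genes averaging 1000 CPM or more, that were higher in animal 2. Mir146 stands on the activity list as well. Of the astrocyte list (Mir21a, Mir29a, Mir31), 3 of 3 genes were higher in animal 2, with summed levels of 13935 CPM there and 8960 CPM in animal 1. Higher in animal 2 were also 2 of 3 oligodendrocyte genes (Mir219a-1, Mir219a-2, Mir338), with sums of 3461 and 1642 CPM. The vascular list (Mir126a, Mir143, Mir145a) had 3 of 3 higher there, with sums of 15155 and 11469 CPM. Of the microglia and leukocyte genes (Mir142, Mir146, Mir150, Mir155, Mir223) 3 of 5 were higher, with 2343 and 1795 CPM in sum, and so were 3 of 5 choroid plexus and ciliated cell genes (Mir204, Mir211, Mir34b, Mir34c, Mir449a), with 1056 and 555 CPM. Of the erythroid genes (Mir144, Mir451a, Mir486), 0 of 3 were higher and 2 were lower, with 91.2 and 459 CPM in sum. Over all detected genes, 27.0% were lower in animal 2 beyond counting error. With all reads as denominator every log2 ratio moves by -0.54. The directions at genes with small positive ratios, such as Mir29a (0.25) and Mir143 (0.16), thus depend on the scaling. Those at Mir21a (2.05) and Mir31 (3.78) do not. No gene of the cell type lists in this paragraph had 0 counts in both animals. The part of cell makeup in the ratios of Mir132 and Mir212 was not tested.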

How the data were processed

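Small RNA of left cerebral cortex was measured in 2 mice, which form 1 group with 1 library each. The authors deposited raw read counts for each miRNA gene, with 3 unlabelled count columns, whose roles (without regard to strand, read strand, opposite strand) were read from the values. The read-strand column was used. Build mm10 and annotation M21 are given per the file headers of the libraries' metadata; no source used here gives the aligner, trimming or counting program. The first 4 entries of each table name no gene and were left out of library totals: unmapped reads (47.1% of reads in animal 2, 23.4% in animal 1), reads placed at several positions (25.5% and 37.4%), reads at no feature (4.91% and 6.52%) and ambiguous reads, of which the stranded column has none. All 2202 identifiers matched GENCODE M21.

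CPM and exact Clopper-Pearson 95% intervals of counting shares were computed with scipy 1.17.1. The interval rule was tested on data simulated with counting error alone, so that check does not cover other differences between libraries. A ratio between animals was called beyond counting error where the interval of animal 2's share of a gene's counts left out the share given by the library totals. The interval of the difference between log2 ratios used a normal approximation on the log counts. With 1 group no test was run. TMM factors came from edgeR 4.0.16, size factors from DESeq2 1.42.0, alignments from biopython 1.88 and folds from ViennaRNA 2.7.2. Sequences are RefSeq's; both members matched. A count of 0 allows up to 3 counts, or 1.32 CPM in animal 2 and 0.679 CPM in animal 1.

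Named were the members, the other activity-list genes, the 3 genes nearest in log2 ratio and the 2 next in rank on either side of each member, and the 3 leading neuron genes; list members are named with their lists, and names chosen after values were seen are marked. The members and lists were chosen with earlier results of these data known. Alternatives were other scalings and denominators, the unstranded column, other filters and leaving out either animal.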

Additional observations from a re-analysis of the deposited data

How the results depend on the processing

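Of 61 recomputed values, 52 stayed within the spread between animals, the counting interval or 1.5 times the count, 9 moved, and none reversed. Part of the 52 could not move. The value of 1 of 2 animals always lies within their SD of the mean, and no scaling changes the difference between the members' log2 ratios. The tally is therefore not a measure of stability. With all mapped reads as denominator the mean level of Mir132 was 22109 per 1000000 reads, inside its wide spread of 39023 CPM, and that of Mir212 was 510, and with all reads, unmapped ones included and chosen after the data were seen, the means were 12921 for Mir132 and 316 for Mir212; a larger denominator lowers a level by construction. The log2 ratio of Mir132, 1.71, was 1.68 with TMM scaling, 1.75 with Mir132 and Mir139 left out of the total and 1.17 with all reads as denominator, where that of Mir212 was 0.17. Under that denominator 3 activity-list genes in place of 10, and 42 genes in place of 123, were higher in animal 2 beyond counting error, and 241 in place of 112 were higher in animal 1. With Mir132 and Mir139 left out of the total these were 138 and 98. Without replicate 1 or replicate 2, the mean of Mir132 ranged from 24389 to 79576 CPM, that of Mir212 from 909 to 1488 CPM and the count ratio of Mir132 over Mir212 from 26.8 to 53.5. No paired analysis was possible because there was 1 group and no test. The smallest count of a member was 3392, so counting intervals were narrow beside the difference between animals.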
